A study of Mus musculus with 8 samples.

Results

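The liver of Lbr mutant mice was examined for 10 genes of MHC antigen presentation, the class II genes Cd74, H2-Aa, H2-Ab1, H2-Eb1 and Ciita, and the class I genes H2-K1, H2-D1, B2m, Tap1 and Psmb8. They were taken by symbol through the Ensembl gene ID, and 10 of 10 were found among the 49671 genes of the count table and among the 13117 genes that had enough reads to be tested. NT-KO mice are homozygous for a small deletion made with CRISPR/Cas9 that removes the usual start codon of Lbr, the gene of the lamin B receptor. WT mice carry no such deletion. The labels give all samples as C57BL/6 livers collected after weaning. The line descends from 1 male founder that was crossed to C57BL/6N females, followed by intercrosses of heterozygous offspring. The study sequenced RNA from flash-frozen liver to ask what the mutation does to gene expression in each sex, with 4 groups of 2 libraries, WT and NT-KO in males and in females. The labels number the replicates but do not say that they are separate animals, so p-values measure the spread between these samples.

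MHC class I molecules sit on nearly all nucleated cells and show peptides from inside the cell to CD8 T cells. A heavy chain such as H2-K1 or H2-D1 pairs with the light chain B2m, and is loaded in the endoplasmic reticulum with peptides that the immunoproteasome (Psmb8) cuts and the TAP transporter (Tap1) carries in. Class II molecules, an alpha chain and a beta chain held together by the invariant chain Cd74 until a peptide is loaded, show engulfed material to CD4 T cells. In the liver they belong mainly to dendritic cells, B lymphocytes and Kupffer cells, the resident macrophages, and Ciita is the switch that turns their genes on.

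The promoter sequences are shown because the class II genes shared 1 pattern over the libraries and the class I genes did not. RefSeq windows on GRCm38.p6, from 250 bases before to 50 bases after the start, were at hand for 7 of the 10 genes, and those of H2-Eb1, H2-Aa, H2-D1 and B2m are given here in part, on the strand of the gene. Capitals mark TGATTGG, the letters of the Y box of class II promoters, on either strand (CCAATCA on the other), and in B2m only its core ATTGG; these letters were chosen after the windows had been read.
H2-Eb1, chr17:34305737-34305866, plus strand: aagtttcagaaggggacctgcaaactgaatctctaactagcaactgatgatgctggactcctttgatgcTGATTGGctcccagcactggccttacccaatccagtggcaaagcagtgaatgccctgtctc
H2-Aa, chr17:34287824-34287933, minus strand: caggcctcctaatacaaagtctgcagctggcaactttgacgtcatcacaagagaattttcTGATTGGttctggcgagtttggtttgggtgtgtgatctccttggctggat
H2-D1, chr17:35262964-35263093, plus strand: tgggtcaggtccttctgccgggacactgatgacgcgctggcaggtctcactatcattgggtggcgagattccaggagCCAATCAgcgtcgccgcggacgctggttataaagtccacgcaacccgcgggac
B2m, chr2:122147577-122147686, plus strand: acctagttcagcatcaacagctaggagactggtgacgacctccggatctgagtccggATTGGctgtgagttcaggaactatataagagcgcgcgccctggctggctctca
Searched on both strands, TGATTGG stood in the windows of H2-Aa, H2-Eb1, H2-K1, H2-D1 and Tap1, and in 7.82% of all 32851 windows. Since the letters were chosen on the windows of these genes, the share over all windows is no test of enrichment. TGATTGG stood in genes of both classes, so it did not separate them. The windows of B2m and Psmb8 did not hold it. The short core ATTGG, present in 37.4% of all windows, is left in lower case elsewhere. These are matches of letters, and binding was not measured.

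Of the 10 genes, 7 lie in the MHC on chromosome 17. The class II chains H2-Ab1 (34257689 to 34269419), H2-Aa (34282744 to 34287823) and H2-Eb1 (34305867 to 34316674) are neighbours on GRCm38, with Tap1 (34187553 to 34197225) and Psmb8 (34197721 to 34201454) close by. The heavy chains H2-K1 (33996017 to 34000347) and H2-D1 (35262730 to 35267499) flank them. B2m is on chromosome 2, Ciita on chromosome 16 and Cd74 on chromosome 18.

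The libraries held 45020377 to 64396291 counts each, and 3 counts, taken as the floor, were worth 0.0441 to 0.0708 CPM (counts divided by the TMM-scaled library size, so that libraries of different depth compare). Such limits cover counting error only. Lbr, the targeted gene, was higher in both NT-KO groups, at 13.2 ± 0.603 CPM (SD, n = 2) in males against 7.27 ± 1.03 in WT, and at 13.6 ± 0.688 in females against 7.19 ± 0.327, so its count does not mark the loss of the start codon. The defining liver gene Alb lay between 51858 and 83426 CPM. One library stood apart at the MHC: in female NT-KO replicate 1, 5 of 23 tested H2 genes differed by over 1 on the log2 scale from the mean of the other female libraries, against 0 to 2 in each of the other libraries set against their own sex. The main fold changes that rest on it are given with and without it, and the correlations only with it.

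**Figure D1:**
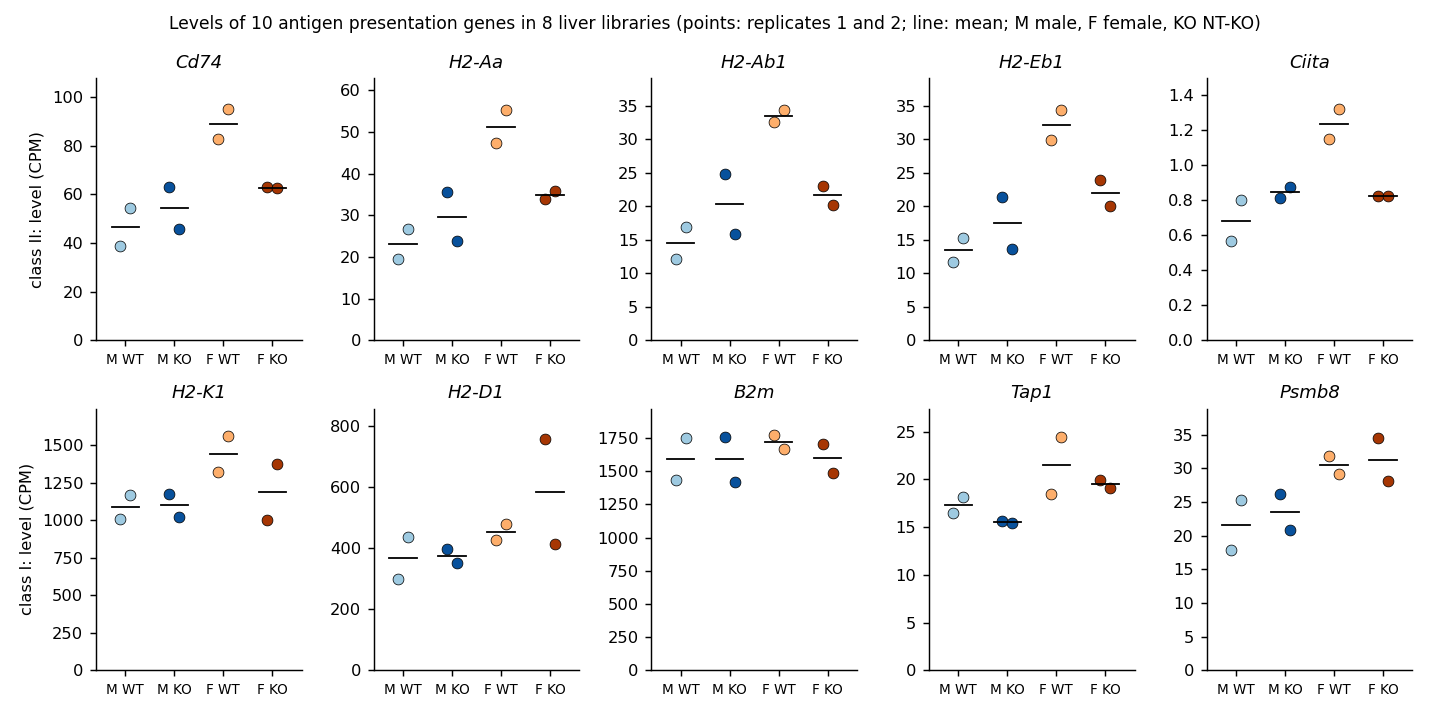
Level (CPM, vertical axes from 0) of each gene in the 8 liver libraries, with class II genes in the upper row and class I genes in the lower row. Points are replicates 1 and 2, lines are group means, M is male, F is female and KO is NT-KO. In all 5 class II panels both female WT points lie above the other 6 points, while in the class I panels no group lies above all others and 1 female NT-KO point of H2-D1 stands at 758 CPM.

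The class II genes varied together over the libraries. Both female WT libraries lay above all the other 6 for H2-Aa, H2-Ab1, H2-Eb1 and Cd74 and for 0 of 5 class I genes. Among all tested genes 4.80% had this pattern, which was looked for after the values had been seen. Ciita had it too, but only through female WT did it reach the tested set. H2-Aa, the alpha chain of the I-A molecule, had 19.4 and 26.7 CPM in WT males, 35.5 and 23.8 in NT-KO males, 47.3 and 55.4 in WT females, and 34.0 and 35.8 in NT-KO females. H2-Ab1, its beta chain, had 12.1 and 16.8 CPM in WT males, 24.8 and 15.8 in NT-KO males, 32.6 and 34.4 in WT females, and 23.1 and 20.2 in NT-KO females. In both chains male NT-KO replicate 1 lay above both male WT libraries and replicate 2 fell between them, whereas in females the genotypes were apart.

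H2-Eb1, the beta chain of the I-E molecule, had 11.7 and 15.3 CPM in WT males, 21.4 and 13.6 in NT-KO males, 29.9 and 34.4 in WT females, and 23.8 and 19.9 in NT-KO females. Its partner gene is broken in C57BL/6 mice, and H2-Ea-ps, as the annotation calls it, had 0 counts in all 8 libraries. Cd74, the invariant chain, had 38.9 and 54.5 CPM in WT males, 62.9 and 45.5 in NT-KO males, 82.8 and 95.0 in WT females, and 63.0 and 62.5 in NT-KO females. The order of the group means was the same for these 4 genes, from male WT over male NT-KO and female NT-KO to female WT, and of the neighbours in that order only female NT-KO and female WT did not overlap.

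Ciita was low in every library. It had 32 to 90 counts, at 0.565 and 0.802 CPM in WT males, 0.814 and 0.877 in NT-KO males, 1.15 and 1.32 in WT females, and 0.825 and 0.826 in NT-KO females. It passed the filter of 1 CPM in 2 libraries only through female WT, so it is left out where the libraries of female WT are counted against all tested genes.

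Per length of exon, as RPKM, Cd74 stood at 23.2 to 56.6, above H2-Eb1 at 6.01 to 17.7, H2-Aa at 5.12 to 14.6 and H2-Ab1 at 4.70 to 13.4. For the alpha and beta chain of I-A, the RPKM ratio of H2-Aa to H2-Ab1 was 0.969 to 1.2 over the 8 libraries. It rests on merged exon lengths of 3798 and 2568 bases, and by CPM, without a length, H2-Aa was the higher in every library. The invariant chain kept a ratio of 3.88 to 4.95 to H2-Ab1. Ciita, at 0.0592 to 0.139 RPKM, was the lowest of the 10 genes.

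**Figure D2:**
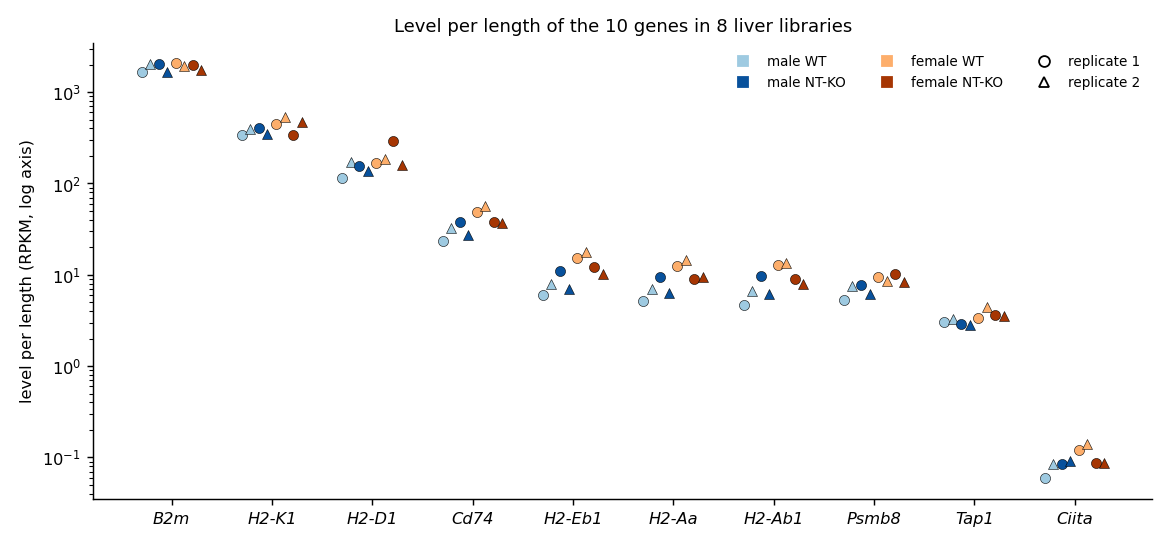
Level per length (RPKM, log axis) of the 10 genes in each library, ordered by their median. Colours give the group and symbols the replicate. B2m leads at 1652 to 2064 RPKM, Ciita is lowest, and the chains of class II lie close together.

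In female NT-KO against female WT, all 5 class II genes were lower by point estimate and none passed the threshold of FDR at most 0.05 and absolute log2 fold change over 1 (edgeR quasi-likelihood test, Benjamini-Hochberg over all tested genes; 0.00762% of all tested genes passed it, in either direction). The log2 fold change was −0.63 ± 0.25 (SE) for H2-Ab1, −0.56 ± 0.23 for H2-Aa, −0.55 ± 0.24 for H2-Eb1, −0.58 ± 0.31 for Ciita and −0.50 ± 0.22 for Cd74, each with an FDR of 1. Before adjustment 3 of them, H2-Ab1, H2-Aa and Cd74, had a p under 0.05 in this direction (edgeR), against 0.679% of all tested genes. The median of the 5 was −0.56, beside 0.0012 over all tested genes. Without Ciita, whose entry through female WT fixed its direction here, the median of the other 4 was −0.55. Both NT-KO libraries lay below both WT libraries for these 4 genes, against 14.2% of all tested genes. Since the genes go up and down together, these are not separate observations. Without female NT-KO replicate 1, whose H2 genes stood apart, the log2 fold change was −0.73 for H2-Ab1, −0.69 for H2-Eb1 and −0.52 for H2-Aa. With each library left out in turn, H2-Ab1 ran from −0.73 to −0.54 and H2-Aa from −0.67 to −0.44. Likewise H2-Eb1 ran from −0.69 to −0.43 and Cd74 from −0.60 to −0.40.

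In male NT-KO against male WT, the 5 class II genes were higher by point estimate and none passed (0.0152% of all tested genes passed). The log2 fold change ran from 0.22 ± 0.22 (SE) for Cd74 to 0.49 ± 0.25 for H2-Ab1, with a median of 0.36 beside 0.01 over all tested genes and an FDR of 0.484 to 0.764 (edgeR). None had an unadjusted p under 0.05, against 11.5% of all tested genes. Only for Ciita did both NT-KO libraries lie above both WT libraries, against 19.6% of all tested genes. The difference rested on male NT-KO replicate 1 and male WT replicate 1: without the former the median was 0.04 and the log2 fold change of Cd74 was −0.04, and without the latter they were 0.14 and −0.01.

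The genotype difference was compared between the sexes by its own test, the female minus the male log2 fold change. It was negative for 5 of 5 class II genes, with a median of −0.92 beside −0.01 over all tested genes, and ran from −1.12 ± 0.35 (SE) for H2-Ab1 to −0.72 ± 0.31 for Cd74. The entry of Ciita through female WT favoured this direction, and without Ciita the median of the other 4 was also −0.92. None passed an FDR of 0.05 (0.575 to 0.696, edgeR; 0.0152% of all tested genes passed). An unadjusted p under 0.05 in this direction was reached by 4 of the 5, all but Ciita, against 3.67% of all tested genes. Without male NT-KO replicate 1 the median of all 5 was −0.60. Over both sexes together the class II median was −0.10, and the 4 NT-KO libraries overlapped the 4 WT libraries for 5 of 5 class II and 5 of 5 class I genes, where 0.366% of all tested genes had the NT-KO libraries apart above and 0.587% apart below.

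**Figure D3:**
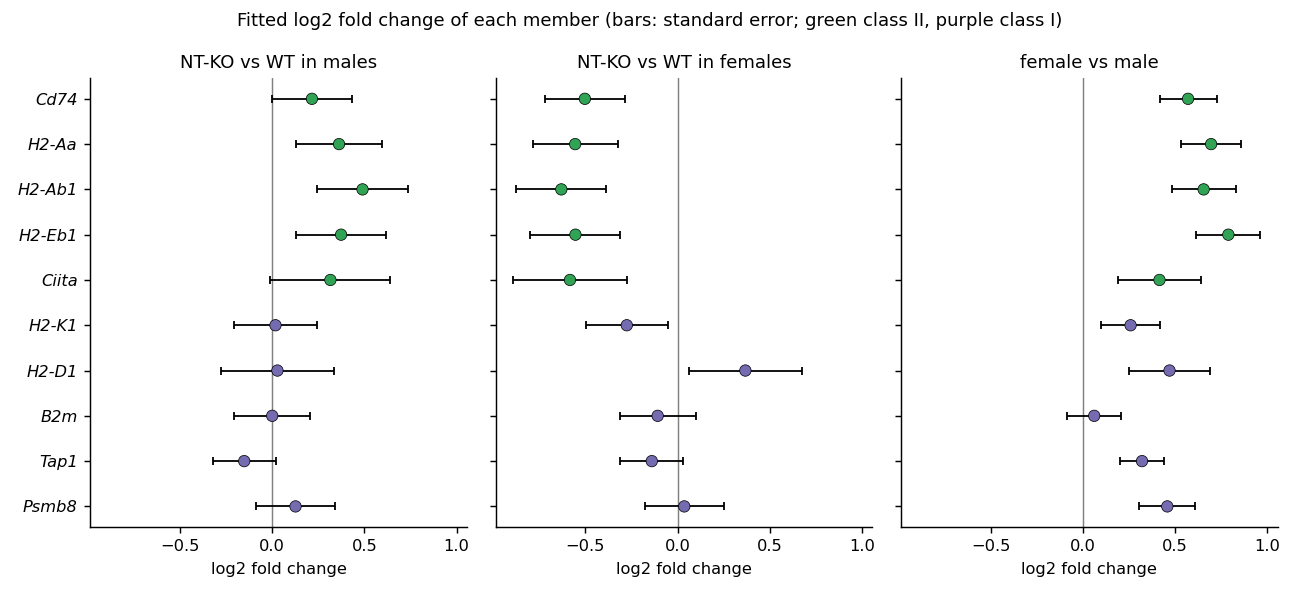
Fitted log2 fold change (points) with its standard error (bars) for each gene in 3 comparisons, class II in green and class I in purple. The class II points lie right of 0 in males, left of 0 in females and right of 0 for female against male, and the class I points lie nearer to 0 in both genotype comparisons.

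The summed level of the 5 class I genes, carried by B2m, H2-K1 and H2-D1, was 2771 to 3759 CPM over the 8 libraries, a 1.36-fold range, while class II summed to 82.6 to 220.5 CPM, a 2.67-fold range. B2m, the light chain, had 1431 and 1747 CPM in WT males, 1757 and 1421 in NT-KO males, 1775 and 1667 in WT females, and 1708 and 1487 in NT-KO females. H2-K1 had 1006 and 1168 CPM in WT males, 1176 and 1024 in NT-KO males, 1320 and 1558 in WT females, and 1001 and 1377 in NT-KO females. For both, the libraries of WT and NT-KO overlapped in each sex.

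H2-D1, the other classical heavy chain, had 299 and 438 CPM in WT males, 398 and 353 in NT-KO males, 427 and 480 in WT females, and 758 and 413 in NT-KO females. The highest of its 8 values belonged to female NT-KO replicate 1, at 1.72 times the mean of the other female libraries. Its log2 fold change in females was 0.37 ± 0.31 (SE) with this library and −0.14 without it.

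Peptide supply was measured through Tap1 and Psmb8. Tap1, a subunit of the peptide transporter, had 16.4 and 18.1 CPM in WT males, 15.7 and 15.4 in NT-KO males, 18.5 and 24.5 in WT females, and 19.9 and 19.1 in NT-KO females. Psmb8, a catalytic subunit of the immunoproteasome, had 17.8 and 25.3 CPM in WT males, 26.2 and 20.8 in NT-KO males, 31.8 and 29.2 in WT females, and 34.5 and 28.1 in NT-KO females. Tap1 was lower in both male NT-KO libraries than in both male WT libraries, as were 19.2% of all tested genes, and the other class I genes overlapped in each sex. Psmb8 stood below Psmb5, the constitutive subunit in its place, with an RPKM ratio of 0.0644 to 0.123. The size of this ratio depends on their merged exon lengths of 3381 and 899 bases.

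No class I gene passed the threshold in NT-KO against WT. The log2 fold changes ran from −0.15 to 0.13 in males (median 0.02, FDR 0.787 to 1.00, edgeR) and from −0.28 to 0.37 in females (median −0.11, FDR 1, edgeR), and 0 of 5 had an unadjusted p under 0.05 in either sex, against 1.55% of all tested genes in females. The likelihood ratio test and DESeq2 also called 0 of the 10 genes in each sex. The difference between the sexes was −0.29 to 0.34 for class I, with a median of −0.09 and an FDR of 0.856 to 0.996 (edgeR). Without female NT-KO replicate 1, H2-K1 in females was −0.06, and H2-D1 was −0.16 for the difference between the sexes.

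The balance of the heavy chains was held in 7 libraries and not in the eighth. The count ratio of H2-K1 to H2-D1 was 2.67 to 3.36 in all libraries but female NT-KO replicate 1, where it was 1.32. Their summed level there, 1759 CPM, lay within the 1748 to 2038 CPM of the other female libraries. The longest identical run of their coding sequences is 91 bases, shown because reads within it cannot be given to one gene by sequence:
H2-K1 and H2-D1: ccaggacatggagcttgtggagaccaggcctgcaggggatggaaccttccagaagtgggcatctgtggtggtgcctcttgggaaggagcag
Of all 50-base stretches in their GENCODE transcripts, 9.63% of H2-K1 and 12.8% of H2-D1 occur in another gene, mainly H2-Q10 and H2-Q1, so their counts are less certain than those of Cd74, H2-Ab1, H2-Eb1 and B2m, which share none. How reads that match several genes were counted is not given in the sources used here.

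The same library differed at other H2 genes, which are named here after their values had been seen. H2-T10 stood at 38.5 CPM against 13.0 to 15.2 in the other female libraries, and H2-Q1 at 35.6 against 8.78 to 19.3. H2-T22 stood at 70.0 CPM against 115 to 133, H2-T23 at 118 against 190.4 to 218, and H2-K2, a pseudogene beside H2-K1, at 14.8 against 25.1 to 34.4. H2-T10 and H2-T22 share 50.4% and 53.5% of their stretches, chiefly with each other, so their reads may be counted for either. Over the stretch of chromosome 17 from 33974659 to 37483552, which runs from H2-K2 to H2-M2, 8 of 107 tested genes (7.48%) differed by over 1 on the log2 scale in this library, against 2.01% of all tested genes, and 0.935% to 6.54% of the stretch did so in the other libraries. Whether the pattern comes from the animal or from the library cannot be told apart with 1 sample.

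**Figure D4:**
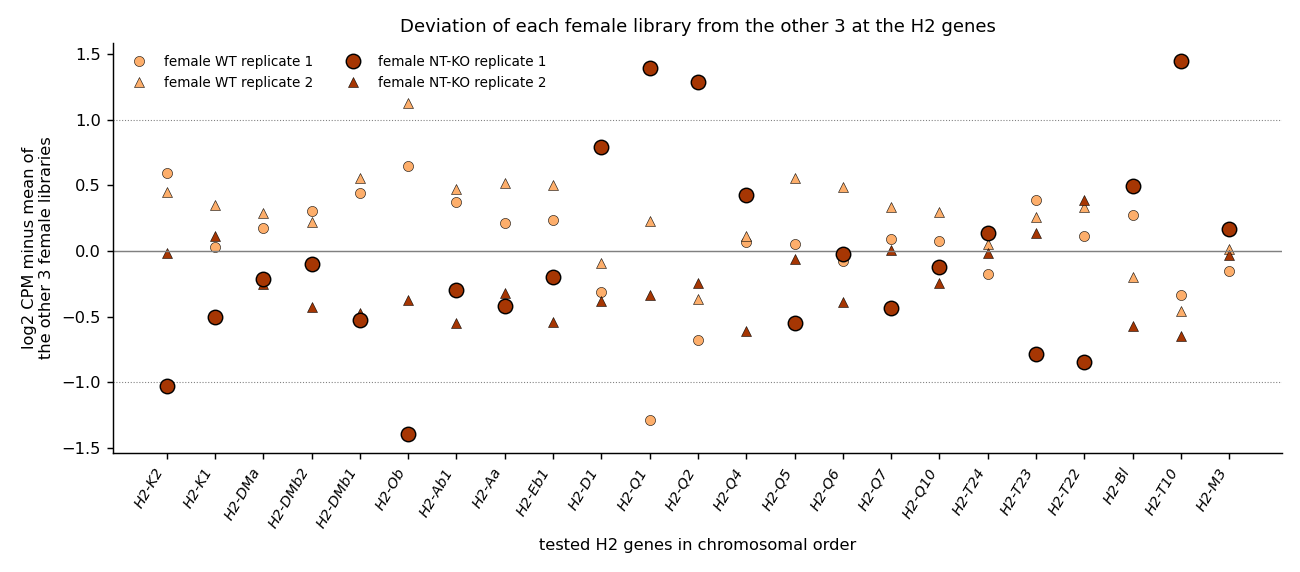
Difference of each female library from the mean of the other 3 (log2 CPM, vertical axis) at 23 tested H2 genes in chromosomal order. Large dark circles are female NT-KO replicate 1, which lies over 1 above the others at H2-Q1, H2-Q2 and H2-T10 and over 1 below them at H2-K2 and H2-Ob, while the class II chains lie within 1 of 0.

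Female livers were compared with male livers over both genotypes. All 10 genes were higher in females by point estimate. For class II the log2 fold change was 0.79 ± 0.17 (SE, FDR 0.0324, edgeR) for H2-Eb1, 0.70 ± 0.16 (FDR 0.0403, edgeR) for H2-Aa, 0.65 ± 0.17 (FDR 0.0575, edgeR) for H2-Ab1, 0.57 ± 0.15 (FDR 0.0606, edgeR) for Cd74 and 0.42 ± 0.23 (FDR 0.275, edgeR) for Ciita. H2-Eb1 and H2-Aa thus passed the FDR alone, as did 4.12% of all tested genes in this direction, and none of the 10 had an absolute log2 fold change over 1 as well, which 4.19% of all tested genes had. The female and male libraries of all 5 class II genes overlapped. With 1 library left out, H2-Eb1 and H2-Aa stayed under an FDR of 0.05 in 2 of 8 cases each, the ones leaving out replicate 2 of male WT or replicate 1 of male NT-KO. In the 6 other cases the FDR was over 0.05, and it reached 0.109 for H2-Eb1 and 0.131 for H2-Aa.

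For class I the sex difference was smaller and no gene passed. The log2 fold change was 0.46 ± 0.15 (SE, FDR 0.104, edgeR) for Psmb8, 0.32 ± 0.12 (FDR 0.138, edgeR) for Tap1, 0.47 ± 0.22 (FDR 0.208, edgeR) for H2-D1, 0.26 ± 0.16 (FDR 0.334, edgeR) for H2-K1 and 0.06 ± 0.15 (FDR 0.829, edgeR) for B2m. Psmb8 and Tap1 were higher in all 4 female libraries than in all 4 male libraries, as were 8.50% of all tested genes, and both had an unadjusted p under 0.05 in this direction, as did 13.8% of all tested genes. Without female NT-KO replicate 1 the value of H2-D1 was 0.22.

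Other genes of the 2 pathways were taken from lists. Of 17 tested genes of the class II pathway, 2 passed in females against males: H2-DMb2, a chain of the peptide exchanger, with a log2 fold change of 1.57 ± 0.27 (SE, FDR 0.0115, edgeR), and H2-Ob, a chain of its inhibitor, with 1.2 ± 0.28 (FDR 0.0375, edgeR). H2-DMb2 had 0.236 to 0.534 CPM in the male libraries and 0.765 to 1.13 in the female libraries. Both reached 1 CPM only in female libraries, so they entered the tested set through the sex where they were high, and their count supports nothing about the list. H2-DMb2 also shares 25.9% of its stretches with other genes, chiefly H2-DMb1. Of the listed factors that bind class II promoters none passed the FDR, among them Rfx5 at 0.47 ± 0.14 (FDR 0.0809, edgeR) and Nfya at 0.08 ± 0.12 (FDR 0.711, edgeR). Missing the FDR does not show that they were equal in the sexes. In NT-KO against WT 0 of the 17 passed in either sex. In each sex 1 had an unadjusted p under 0.05 (edgeR), against 11.5% of all tested genes in males and 1.55% in females. The largest NT-KO differences by estimate were H2-DMb2 in males, at 0.83 ± 0.41, and H2-Ob in females, at −1.32 ± 0.37, or −0.98 without female NT-KO replicate 1, the lowest of the female libraries. Outside female WT, H2-Ob reached 1 CPM in female NT-KO replicate 2 alone, so its entry into the tested set favoured a fall in females.

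Of 15 tested genes of class I loading and peptide supply, none passed the fold threshold in females against males. The FDR alone was passed by 3, all higher, as by 4.12% of all tested genes in this direction. These were the tapasin gene Tapbp, which edits peptides on class I, at 0.61 ± 0.13 (SE, FDR 0.0284, edgeR), and the other immunoproteasome subunits Psmb9, at 0.73 ± 0.16 (FDR 0.0325, edgeR), and Psmb10, at 0.47 ± 0.12 (FDR 0.0497, edgeR). Psmb9 had 9.25 to 14.0 CPM in male and 17.3 to 23.3 CPM in female libraries, and the sexes did not overlap. Of the 6 constitutive proteasome genes none passed, and their median was −0.13 beside −0.01 over all tested genes. In NT-KO against WT 0 of the 15 and 0 of the 6 passed in either sex (edgeR). In males Pdia3, a chaperone of the loading complex, had −0.94 ± 0.28 (FDR 0.287, edgeR), and 2 of the 15 genes had an unadjusted p under 0.05, both lower, against 5.50% of all tested genes.

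Among 19 tested class I-like genes, 3 passed in females against males, where 4.19% of all tested genes passed, H2-Q1 at 1.73 ± 0.34 (SE, FDR 0.0218, edgeR), H2-K2 at 1.58 ± 0.23 (FDR 0.00595, edgeR) and H2-T10 at 1.36 ± 0.30 (FDR 0.0321, edgeR), and in H2-Q1 and H2-T10 female NT-KO replicate 1 had the highest value. Without that library H2-Q1 had 1.34 (FDR 0.0601, edgeR), H2-T10 0.87 (FDR 0.0197, edgeR) and H2-K2 1.75 (FDR 0.00826, edgeR). H2-Q10, a secreted heavy chain made by the liver, had 1804 to 2647 CPM and a log2 fold change of −0.17 ± 0.13 (FDR 0.433, edgeR). Of 23 tested interferon response genes 6 passed, all higher in females, as did 2.24% of all tested genes in this direction, and the median was 0.64. Cxcl9, a chemokine induced by interferon gamma, led them at 1.69 ± 0.13 (FDR 2e-04, edgeR), from 4.13 to 7.12 CPM in males to 16.7 to 19.7 CPM in females. In NT-KO against WT 0 genes of both lists passed in either sex (edgeR), with an unadjusted p under 0.05 for 3 class I-like and 3 interferon genes in males, near the 11.5% of all tested genes, and for 0 in females.

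In females the marker sums of B lymphocytes and dendritic cells were lower in both NT-KO than in both WT libraries, as class II was. So were those of T and NK cells and of sinusoidal endothelium, whereas the Kupffer cell sums of female WT and female NT-KO overlapped. Whether a group had fewer cells of a type or less RNA per cell cannot be told apart in bulk tissue. The summed level of 10 B lymphocyte markers, 5 of which were tested, was 2.36 to 4.59 CPM in male libraries, 12.3 to 12.4 in female WT and 5.69 to 8.20 in female NT-KO. Of the 5 tested markers, 4 reached 1 CPM only in female libraries and so were tested only through the sex where they were high, and no count or median over them is given for females against males. In NT-KO against WT 0 of the 5 passed in either sex (edgeR), with an unadjusted p under 0.05 for 2 in females and 1 in males.

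The 10 dendritic cell markers, 3 of them tested, summed to 8.82 and 10.7 CPM in WT males, 14.4 and 11.1 in NT-KO males, 19.3 and 17.3 in WT females, and 15.6 and 14.8 in NT-KO females. By CPM, Zbtb46 and Clec9a were the most abundant of the tested 3, and so weigh heavily in the dendritic cell sum. The summed class II level divided by this sum was 9.0 to 12.7 in the 8 libraries, a 1.41-fold range, where class II itself ranged 2.67-fold. Divided by the sum of 11 Kupffer cell markers it was 0.294 to 0.504, a 1.71-fold range. Divided by the sum of the sinusoidal endothelium markers it ranged 2.13-fold. Divided by that of the B lymphocyte markers it was 15.6 to 48.4, a 3.11-fold range and wider than that of class II itself. The other lists were not used as divisors, so the narrow range is not shown to be particular to dendritic cells. T and NK cell markers summed to 3.16 and 4.39 CPM in WT males and 4.09 and 3.35 in NT-KO males. In females these markers summed to 7.81 and 6.10 CPM in WT and 4.37 and 5.55 in NT-KO. Clec9a, a receptor of cross-presenting dendritic cells, passed in females against males at 1.05 ± 0.21 (SE, FDR 0.022, edgeR). Among the Kupffer cell markers none passed the fold threshold and 11 of 11 were higher in females, against 48.9% of all tested genes. In sum they stood at 224 to 376 CPM in male and 403 to 473 CPM in female libraries. No marker list held a gene at 0 in every library. The part of these cells in the class II levels was not tested.

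**Figure D5:**
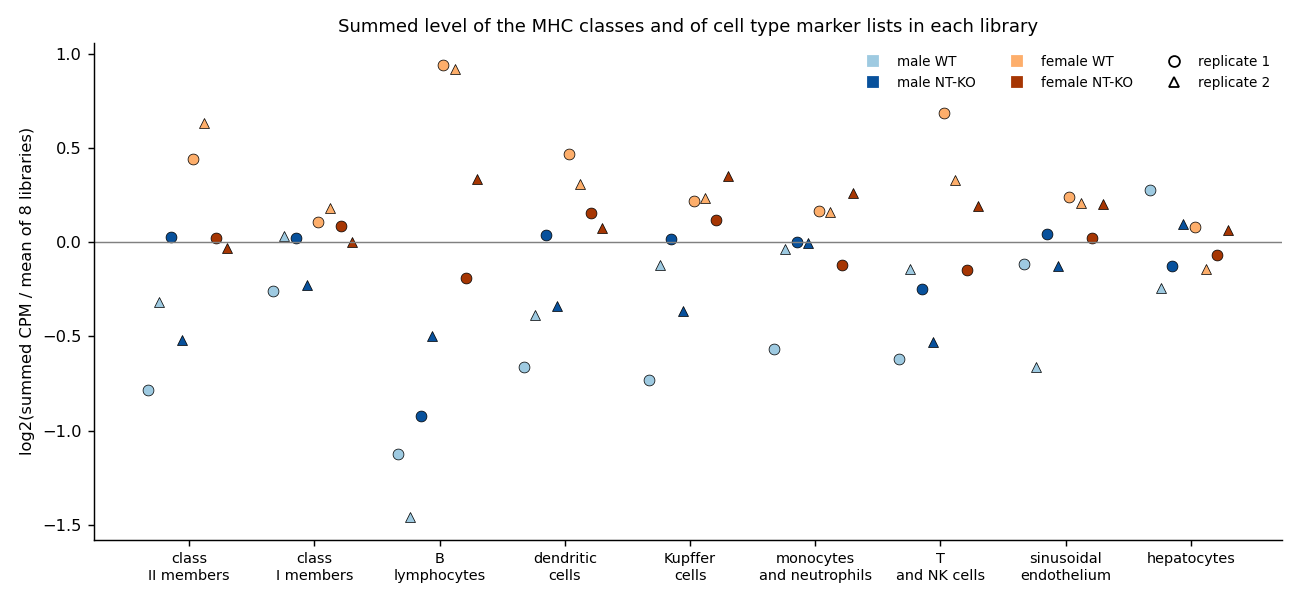
Summed CPM of each list in each library relative to its mean over the 8 libraries (log2, vertical axis), for both MHC classes and 7 cell type marker lists. Colours give the group and symbols the replicate. Female WT lies on top in both MHC classes and in B lymphocytes, dendritic cells, T and NK cells and sinusoidal endothelium, but not in Kupffer cells, monocytes and neutrophils, or hepatocytes.

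Sinusoidal endothelium had a median log2 fold change of 0.38 in females against males with 0 of 8 genes passing, monocytes and neutrophils 0.29 with 0 of 6, and hepatocytes −0.35 with 0 of 8 (edgeR). Over all tested genes the median was −0.01 and 4.19% passed, so counts of 0 in lists this short show nothing about them. Unadjusted, 5 of the 8 endothelial genes were higher with p under 0.05 (edgeR; 13.8% of all tested genes were), 4 of the 8 hepatocyte genes lower (13.1% of all tested genes were), and 0 of the 6 myeloid genes either way. Of 3 tested T and NK cell genes Gzma was higher, at 1.91 ± 0.34 (SE, FDR 0.0137, edgeR), and Cd4 lower, at −1.70 ± 0.26 (FDR 0.00719, edgeR; 1.95% of all tested genes were lower). Gzma reached 1 CPM only in female and Cd4 only in male libraries, so each was tested only through the sex where it was high. In NT-KO against WT 0 genes of these lists passed in either sex (edgeR), and an unadjusted p under 0.05 was reached by 2 endothelial genes and 1 hepatocyte gene in males (11.5% of all tested genes) and by 1 endothelial gene in females (1.55% of all tested genes).

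The genes whose pattern was most like the members' were found by Pearson's r of log2 CPM over the 8 libraries, which share sex, depth and scaling. To the mean of H2-Aa, H2-Ab1, H2-Eb1 and Cd74 they were H2-DMa (0.981), Gm26773 (0.977), Tbc1d10c (0.976), Brms1 (0.976) and Zfp280c (0.973), and 151 of the 13107 other tested genes had an r over 0.9. H2-DMa, the alpha chain of the peptide exchanger, had 1.78 to 4.30 CPM. To the mean of the class I genes they were Arpc1a (0.980), Adam33 (0.977), Usp18 (0.977), Snx17 (0.966) and Naprt (0.965), out of 83. Pairs of class II genes had an r of 0.853 to 0.994 with a median of 0.979, pairs of class I genes 0.0513 to 0.844 with a median of 0.564, and pairs across the classes 0.360 to 0.851. The lowest was that of H2-K1 and H2-D1. It includes female NT-KO replicate 1, where their count ratio was 1.32 against 2.67 to 3.36 in the other libraries. No r was taken without that library, so a lack of joint variation of these heavy chains is not shown.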

How the data were processed

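RNA was taken from flash-frozen liver with Trizol, and libraries were made from 1 µg with an Illumina TruSeq kit that does not mark strand. Reads were trimmed by the authors (cutadapt), mapped to GRCm38 with STAR 2.6.1a and assigned to Ensembl genes with featureCounts. The deposited values are raw counts, without normalization or filter. The strand and multi-mapping settings are not given in the sources used here. Ciita overlaps Dexi, Tap1 overlaps Psmb9 and Psmb8 overlaps the antisense Gm20496 on the opposite strand, by 3.45%, 3.87% and 14.7% of their exon length, so their reads cannot be told apart there.

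Groups came from the labels, and 0 columns were left unused. Symbols and lengths came from GENCODE M21, which matched 49412 of 49671 gene IDs. CPM, RPKM over merged exons and log2 CPM (prior count 2) were computed with TMM-scaled library sizes (factors 0.926 to 1.06). Genes with 1 CPM in 2 libraries, without rRNA, miRNA and mitochondrial genes, were tested with edgeR 4.0.16 (R 4.3.3): a quasi-likelihood fit with 4 group means over all 8 libraries and no block, Benjamini-Hochberg adjusted. The threshold was an FDR no higher than 0.05 with a log2 fold change above 1 in size; the sex difference of the genotype effect needed the FDR alone. The SE is the log2 fold change divided by the square root of F. The test was first tried on simulated counts. No pair of replicates agreed within sampling noise: chi-square per degree of freedom was 112 to 278.

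Alternatives were the likelihood ratio test, DESeq2 1.42.0, RLE factors, filterByExpr, a filter of 1 count only, plain library sizes, a replicate block, the libraries of 1 sex alone, and each library left out, where a lone sample is assumed to vary like the other groups. The members and lists were chosen with earlier results of these data known. Named were the members, Lbr, up to 5 genes per pathway list past the FDR, the largest rise and fall per list and sex (those the text gives), the most abundant markers, and the 5 genes most like each class. Others are said to be chosen after their values were seen.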

Additional observations from a re-analysis of the deposited data

Results flagged for a closer look

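Among the H2 genes outside the tested set, 4 had a level in 1 NT-KO library that exceeded both the floor of 3 counts and 2 times the highest WT library, and in each case the library was female NT-KO replicate 1. The pseudogene H2-T-ps stood at 7.34 CPM (418 counts), against 14 to 54 counts in the other 7 libraries. H2-M5 stood at 0.281 CPM (16 counts, against 0 to 6), H2-M10.6 at 0.228 CPM (13 counts, against 1 to 5) and H2-Q3 at 0.193 CPM (11 counts, against 0 or 1). They lie in the same part of chromosome 17 as H2-D1, H2-Q1 and H2-T10, which were also high in this library. With 1 library the values carry no replicate check.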

How the results depend on the processing

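Of 759 values of the 10 genes under the alternatives, 716 kept their direction and call, 42 changed sign, none lost a call and 1 gained one: with no filter beyond 1 count H2-Ab1 passed for the difference between the sexes (FDR 0.0213, edgeR), 1 gene instead of 0. With library size only, B2m in males was 0.0663, Tap1 for the difference between the sexes was −0.0801, the class II sum of female NT-KO was 147 CPM, the class I sum of female WT 3866 CPM and the median of class I loading in females against males 0.37, and the median of all tested genes in that comparison moved by 0.13. Without the filter B2m in males was 0.00208. With 1 library left out, the class II median was taken over the genes that could be fitted, with Ciita among them unless a female WT library was left out. It ranged from 0.0443 to 0.62 in males, from −0.66 to −0.45 in females and from −1.17 to −0.60 for the difference between the sexes. The sign of these single values changed: in males B2m (−0.16 to 0.15), Cd74 (−0.0362 to 0.48), H2-K1 (−0.0912 to 0.13), H2-D1 (−0.23 to 0.33) and Psmb8 (−0.11 to 0.40); in females H2-D1 (−0.14 to 0.74), Psmb8 (−0.12 to 0.18) and Tap1 (−0.33 to 0.0752); over both sexes B2m (−0.13 to 0.0211), H2-Aa (−0.26 to 0.0350), H2-Ab1 (−0.25 to 0.0751), H2-Eb1 (−0.27 to 0.0574), H2-D1 (−0.0543 to 0.38) and Psmb8 (−0.0340 to 0.22); for the difference between the sexes B2m (−0.26 to 0.0530), H2-D1 (−0.16 to 0.71), Psmb8 (−0.36 to 0.16) and Tap1 (−0.18 to 0.23); and for female against male B2m (−0.0107 to 0.14). The cause was not tested.

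Counts over all tested genes moved more than the genes reported here. In males 2 genes passed, 205 by the likelihood ratio test, 218 by DESeq2, 667 without the filter, 6 with filterByExpr, 0 with the male libraries alone and up to 21 with 1 library left out. In females 1 passed, and 11, 5, 172, 1, 0 and 0 did so in the same order. For the difference between the sexes 2 passed, and 46, 62 and 552 did so by the first 3 of these settings. Over both sexes 2 passed, and 38, 39 and 205 did so by the same 3 settings. For female against male 550 passed, 678 and 656 by the other tests and 1241 without the filter, where the FDR of H2-Eb1 was 1.7e-05 (edgeR), against up to 0.109 over its other settings. Libraries with the same replicate number within a sex deviated with a correlation of −0.0067 in males and 0.023 in females, so the numbers did not pair them. With a replicate block 2 genes passed in males, 1 in females and 537 for female against male, no call by FDR and fold among the 10 genes changed, and by the FDR alone H2-Aa in females against males no longer passed (0.0567, edgeR). Depth limits Ciita most, with 32 to 90 counts a library, and without either female WT library it fell below the filter and could not be fitted.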
